A study of Homo sapiens with 24 samples.

Results

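SOCS1, SOCS3 and CISH encode feedback inhibitors of cytokine signalling, and the probe sets that carry one of these 3 gene symbols were followed through all 8 groups of treatment and time. They are 3 of the 14884 genes measured, read by 4 of the 53617 probe sets on the array: 1 for SOCS1 (16823866), 1 for CISH (16954567) and 2 for SOCS3 (16849400, called probe set 1, and 17117736, called probe set 2). SOCS3 is read by probe set 1, the brighter one, unless probe set 2 is named. The cells were HepG2, a line established from a human liver tumour that is often used in place of hepatocytes. One set of wells received 100 ng/mL of oncostatin M (OSM), a cytokine of the interleukin-6 family, and was read on 3 arrays after 1 h and 3 after 24 h. Another received 1 uM of BRD8518, a compound known here by its code name alone, and was read on 3 arrays after 1 h, 2 after 6 h and 3 after 24 h. Vehicle wells were read on 3 arrays at 1 h, 4 at 6 h and 3 at 24 h, and the medium of every group, OSM included, held 0.25% DMSO. The series concerns compounds that induce TRIB1, a pseudokinase gene, and the comparisons below ask how these inhibitors differ between treated and vehicle cells of the same time. All cells are 1 tumour line, and nothing in the labels says that the arrays of a group came from separate cultures, so p values measure the spread between these arrays alone, which may be technical.

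Cytokines such as OSM and interleukin-6 bind receptors that share the gp130 chain, on which Janus kinases phosphorylate STAT proteins, and the STAT dimers then enter the nucleus and switch on target genes. Genes of the SOCS family are among those targets, and their proteins act back on the same receptors. SOCS1 and SOCS3 block Janus kinases directly, SOCS3 by docking on gp130, while CISH covers STAT5 docking sites on receptors such as those for growth hormone and erythropoietin. Each member also ends in a SOCS box, which recruits a ubiquitin ligase to the receptor or kinase that it holds. In liver, SOCS3 is best known as the brake on interleukin-6 signals and SOCS1 as the brake on interferon signals.

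The promoters are shown because the members are known STAT targets and differed here in how long and in which direction they changed. Each run is the 250 bases before the annotated start of transcription, 5′ to 3′ on the gene's own strand, from RefSeq on GRCh38.p14. All 3 genes lie on the minus strand, at chr3:50611775-50612024 for CISH, chr16:11256205-11256454 for SOCS1 and chr17:78360926-78361175 for SOCS3, the last before the more upstream of its 2 annotated starts. Capitals mark matches to TTCNNNGAA, the letter pattern that STAT dimers are known to bind, or to GAAA repeated after any 2 bases, an element known from interferon-responsive promoters.
CISH: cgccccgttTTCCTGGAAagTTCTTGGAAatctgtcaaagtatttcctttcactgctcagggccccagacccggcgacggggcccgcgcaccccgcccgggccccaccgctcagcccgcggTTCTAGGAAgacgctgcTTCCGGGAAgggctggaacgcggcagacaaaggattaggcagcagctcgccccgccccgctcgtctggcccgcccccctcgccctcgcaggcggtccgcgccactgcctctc
SOCS1: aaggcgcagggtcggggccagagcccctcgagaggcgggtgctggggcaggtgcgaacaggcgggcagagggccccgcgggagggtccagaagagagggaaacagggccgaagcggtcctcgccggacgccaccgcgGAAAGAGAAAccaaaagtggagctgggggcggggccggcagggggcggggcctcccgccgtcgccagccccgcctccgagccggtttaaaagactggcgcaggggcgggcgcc
SOCS3: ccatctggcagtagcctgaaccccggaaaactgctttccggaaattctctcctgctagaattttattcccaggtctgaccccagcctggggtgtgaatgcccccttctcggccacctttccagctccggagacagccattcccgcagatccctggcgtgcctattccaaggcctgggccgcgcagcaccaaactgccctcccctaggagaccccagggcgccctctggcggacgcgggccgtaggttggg
CISH held 4 matches to the STAT pattern, at bases 241 to 233, 230 to 222, 129 to 121 and 112 to 104 before the start, with the letters TTCCTGGAA, TTCTTGGAA, TTCTAGGAA and TTCCGGGAA. The STAT pattern is its own reverse complement, both strands were searched for both patterns, and no match overlapped another. Of 35116 RefSeq promoter windows of the same length, 2306 (6.57%) held at least 1 match to it, 125 (0.356%) at least 2 and 5 (0.0142%) at least 4. The SOCS1 window held 0 matches to the STAT pattern and 1 to the interferon-type element, GAAAGAGAAA at bases 113 to 104 before the start, which 1061 windows (3.02%) also held. The SOCS3 window held 0 matches to either, which says only that these letters are not in these 250 bases. The patterns were chosen with the sequences in view, and a match is a string of letters, not a measured binding site.

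Values are the deposited log2 intensities, so a difference of 1 is a doubling. A change is the difference between group means with its standard error (SE) and 95% confidence interval from 1 limma fit over all 24 arrays, and a gene is said to have risen or fallen where its p value, corrected by the Benjamini-Hochberg method for the 14884 genes of that comparison, was under 0.05. Of 12 listed hepatocyte markers 10 were measured, and the means of all 10, from APOA1 at 8.48 to APOB at 12.5, lay above 6.00, the median of all genes. Of 20 listed markers of other cell types 12 were measured, from KDR at 4.24 to LYZ at 12.2. As 6 of these 12 also lay above that median, a level above it does not set the cell type. One vehicle array, DMSO 6 h replicate 2, stood apart: its values differed from the rest of its group with an SD of 0.44, against 0.15 to 0.25 for the other 23 arrays. Results of the 3 members that use the 6 h vehicle arrays are therefore given with and without it where it matters. Values of other genes that use these arrays are given with it only. The labels also carry a position code whose meaning they do not state. The 1 h vehicle and OSM arrays share its letter B and the 6 h arrays its letter D, whereas the third 24 h vehicle array and the 1 h BRD8518 arrays 2 and 3 carry another letter than the arrays they are compared with. All values describe RNA from whole wells, in which fewer expressing cells and less RNA per cell cannot be told apart.

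SOCS3, the gp130 brake, had the largest change of any gene measured in cells given OSM for 1 h. Its vehicle arrays read 5.40, 5.62 and 5.41 at 1 h and its OSM arrays 10.30, 10.26 and 10.13. The OSM arrays lay far above every vehicle array, with no overlap. The log2 change was 4.75 (SE 0.14, interval 4.47 to 5.03), 26.9-fold, with an adjusted p of 3.8e-16. At 24 h SOCS3 was still high, at 8.90, 8.79 and 8.62 under OSM against 5.15, 5.36 and 5.40 in vehicle. That rise of 3.47 (SE 0.14, interval 3.19 to 3.75, adjusted p = 1.4e-13) was 11.1-fold and the third largest change of that comparison. The OSM effect on SOCS3 was thus smaller at 24 h than at 1 h, by 1.28 on the log2 scale (SE 0.19, interval -1.68 to -0.89 for 24 h minus 1 h, adjusted p = 1.8e-04).

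CISH, the member that acts at STAT5 docking sites, rose early and had come most of the way back by 24 h. Its arrays read 5.74, 5.91 and 5.95 in vehicle and 7.59, 7.67 and 7.48 under OSM at 1 h, again without overlap. This was a rise of 1.71 (SE 0.09, interval 1.53 to 1.90), 3.28-fold, with an adjusted p of 6.2e-12. At 24 h the OSM arrays read 6.25, 6.29 and 6.32 against 5.95, 5.84 and 5.81 in vehicle, a rise of 0.42 (SE 0.09, interval 0.24 to 0.60, adjusted p = 0.0023), 1.34-fold. Every OSM array still lay above every vehicle array, by a narrow margin. Between these times the effect dropped by 1.29 (SE 0.12, interval -1.55 to -1.03 for 24 h minus 1 h, adjusted p = 5.6e-07). The drops of CISH and SOCS3 were not tested against each other.

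SOCS1, the broad Janus kinase inhibitor, rose by nearly the same amount at both times. At 1 h it read 7.44, 7.53 and 7.45 in vehicle and 8.91, 8.82 and 8.85 under OSM. At 24 h it read 7.51, 7.52 and 7.79 in vehicle and 9.15, 8.85 and 9.06 under OSM. The OSM arrays lay above all vehicle arrays at each time. The rises were 1.39 (SE 0.13, interval 1.12 to 1.66, 2.62-fold, adjusted p = 1.6e-07) and 1.41 (SE 0.13, interval 1.14 to 1.69, 2.66-fold, adjusted p = 7.7e-08). They differed by 0.024 (SE 0.18, interval -0.36 to 0.41 for 24 h minus 1 h, adjusted p = 1), an interval that excludes a drop as large as that of SOCS3 or CISH but not smaller shifts either way.

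All 3 members thus rose under OSM at both times, where 302 of 14884 genes (2.03%) rose at 1 h and 685 (4.6%) at 24 h. Among rises at 1 h, CISH was the 17th and SOCS1 the 33rd largest, and at 24 h SOCS1 was the 30th and CISH the 460th. Arrays of OSM and vehicle did not overlap for any member at either time, and over all genes OSM arrays lay wholly above vehicle for 11.6% at 1 h and 14.2% at 24 h. Within position letter A, which holds the OSM 24 h arrays and the first 2 vehicle arrays of that time, the 24 h rises were 3.51 for SOCS3, 1.5 for SOCS1 and 0.39 for CISH, with adjusted p values of 5.5e-12, 3.1e-07 and 0.015. The OSM effect fell between 1 h and 24 h for 2.1% of all genes, and SOCS3 and CISH are 2 of these. Beside the OSM values, 5 of 10 hepatocyte markers fell and FGB rose at 24 h, where 5.65% of all genes fell. The mean over the 10 ran from 11.3 to 11.4 at 24 h of OSM against 11.4 to 11.5 in vehicle. At 1 h 1 of the 10 was called, beside 2.84% of all genes. FGB averaged 11.39 at 1 h of OSM against 10.25 in 1 h vehicle. Of 12 markers of other cell types CD14 rose at 1 h, and at 24 h CD14, CD68 and SOX9 rose and PECAM1 fell, with the mean over the 12 from 7.08 to 7.23 against 7.05 to 7.06 in vehicle; their part in the rises was not tested.

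**Figure D1:**
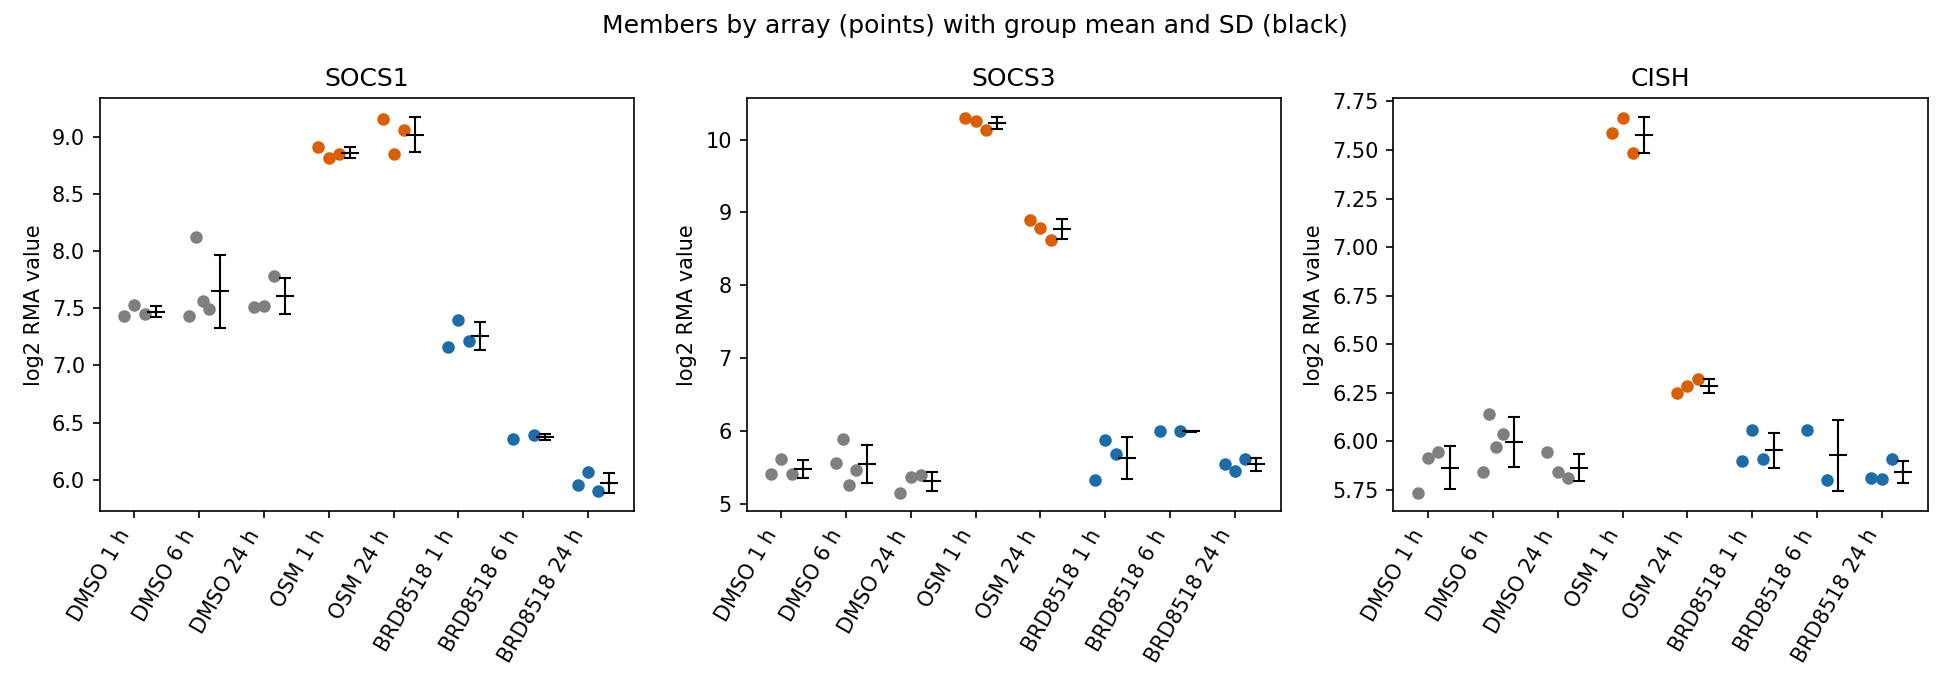
Log2 RMA value of SOCS1, SOCS3 and CISH on each array (points), by treatment and time, with group mean and SD in black; each panel has its own vertical axis. The OSM arrays are the highest of all 3 genes, SOCS1 is the one member called below vehicle under BRD8518, with a mean of 7.26 at 1 h and 5.97 at 24 h, and SOCS3 and CISH under BRD8518 lie near vehicle.

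Under BRD8518 the members parted: SOCS1 fell by 6 h and stayed low, SOCS3 had a small rise at 6 h whose call was lost without most of the single arrays, and no change of CISH was called. SOCS1 read 7.16, 7.40 and 7.21 at 1 h, 6.35 and 6.39 at 6 h, and 5.95, 6.07 and 5.90 at 24 h. The 6 h vehicle arrays read 7.43, 8.12, 7.56 and 7.49. BRD8518 arrays lay below all vehicle arrays of their time at each of the 3 times, which held for 5.56% of all genes at 1 h, 15% at 6 h and 24.4% at 24 h.

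At 1 h the SOCS1 change was -0.21 (SE 0.13, interval -0.48 to 0.061, adjusted p = 1) and did not pass the test. At 6 h SOCS1 fell by 1.28 (SE 0.14, interval -1.57 to -0.99), 2.42-fold, with an adjusted p of 7.8e-07. At 24 h it fell by 1.63 (SE 0.13, interval -1.90 to -1.36), 3.10-fold, with an adjusted p of 1.8e-09. These were the 12th largest fall of any gene at 6 h, where 8.86% of genes fell, and the 38th at 24 h, where 15.6% fell. SOCS1 stood at 8.12 on DMSO 6 h replicate 2, the array that stood apart, and without that array the 6 h fall was 1.12 and still past the threshold. Within position letter A the 24 h fall was 1.54 (adjusted p = 4.6e-08).

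The fall of SOCS1 was larger at later times. The effect at 6 h was below that at 1 h by 1.07 (SE 0.19, adjusted p = 0.0011), and the effect at 24 h was below that at 1 h by 1.42 (SE 0.18, interval -1.81 to -1.04 for 24 h minus 1 h, adjusted p = 6.3e-06). Effects fell in this way for 3.91% of genes between 1 h and 6 h and for 10.3% between 1 h and 24 h. From 6 h to 24 h the further difference of -0.35 (SE 0.19, interval -0.75 to 0.042, adjusted p = 0.30) did not pass the test with all arrays, and without DMSO 6 h replicate 2 it was -0.51 and did (adjusted p = 0.0068), as the effect fell over that interval for 5.12% of genes with all arrays. Hepatocyte markers moved beside it: 6 of 10 were lower under BRD8518 at 24 h, where 15.6% of all genes fell. At 6 h 2 of 10 were lower, where 8.86% of all genes fell. FGB, 1 of the 6, is also among the acute phase genes below. The mean over the 10 ran from 11.1 to 11.2 across the 24 h BRD8518 arrays against 11.4 to 11.5 in 24 h vehicle. Among the 12 markers of other cell types, CD68 rose at 6 h (0.51), where 5.62% of all genes rose. At 24 h CD68 (1.19) and KRT19 (0.97) rose, where 12.1% of all genes rose. At either time 0 of the 12 fell. Their mean at 24 h ran from 7.18 to 7.22 against 7.05 to 7.06 in vehicle. The part of either shift in the fall of SOCS1 was not tested.

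SOCS3 under BRD8518 read 5.32, 5.87 and 5.69 at 1 h, 5.99 and 6.00 at 6 h, and 5.55, 5.45 and 5.62 at 24 h. The 6 h vehicle arrays read 5.55, 5.89, 5.26 and 5.46. Treated and vehicle arrays overlapped at 1 h, while at 6 h and 24 h all treated arrays lay above all vehicle arrays, as they did for 11.9% and 19.8% of all genes. The 6 h change of 0.45 (SE 0.14, interval 0.15 to 0.75), 1.37-fold, passed the test with an adjusted p of 0.036, in a comparison in which 5.62% of genes rose. The call was lost without any 1 of the other 5 arrays of the comparison, with adjusted p values from 0.055 to 0.19, and kept without DMSO 6 h replicate 2 (0.57, adjusted p = 0.0025). The changes at 1 h (0.15, interval -0.13 to 0.43, adjusted p = 1) and 24 h (0.23, interval -0.049 to 0.52, adjusted p = 0.24) did not pass, and no difference of the SOCS3 effect between times was called.

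CISH under BRD8518 read 5.90, 6.06 and 5.91 at 1 h, 6.06 and 5.80 at 6 h, and 5.81, 5.81 and 5.91 at 24 h. The 6 h vehicle arrays read 5.84, 6.14, 5.97 and 6.04. Treated and vehicle arrays overlapped at all 3 times. The changes were 0.091 (interval -0.093 to 0.27) at 1 h, -0.069 (interval -0.26 to 0.13) at 6 h and -0.023 (interval -0.21 to 0.16) at 24 h, with adjusted p values of 1, 0.73 and 0.90. Each of these intervals ends below 0.42, the estimated rise of CISH at 24 h of OSM. That rise has its own interval of 0.24 to 0.60, into which the 1 h interval under BRD8518 reaches. CISH overlaps MAPKAPK3 in the RefSeq annotation, and MAPKAPK3, which encodes a stress-activated kinase, passed no comparison with vehicle; its largest size there was -0.16 at 6 h of BRD8518 (adjusted p = 0.18).

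**Figure D2:**
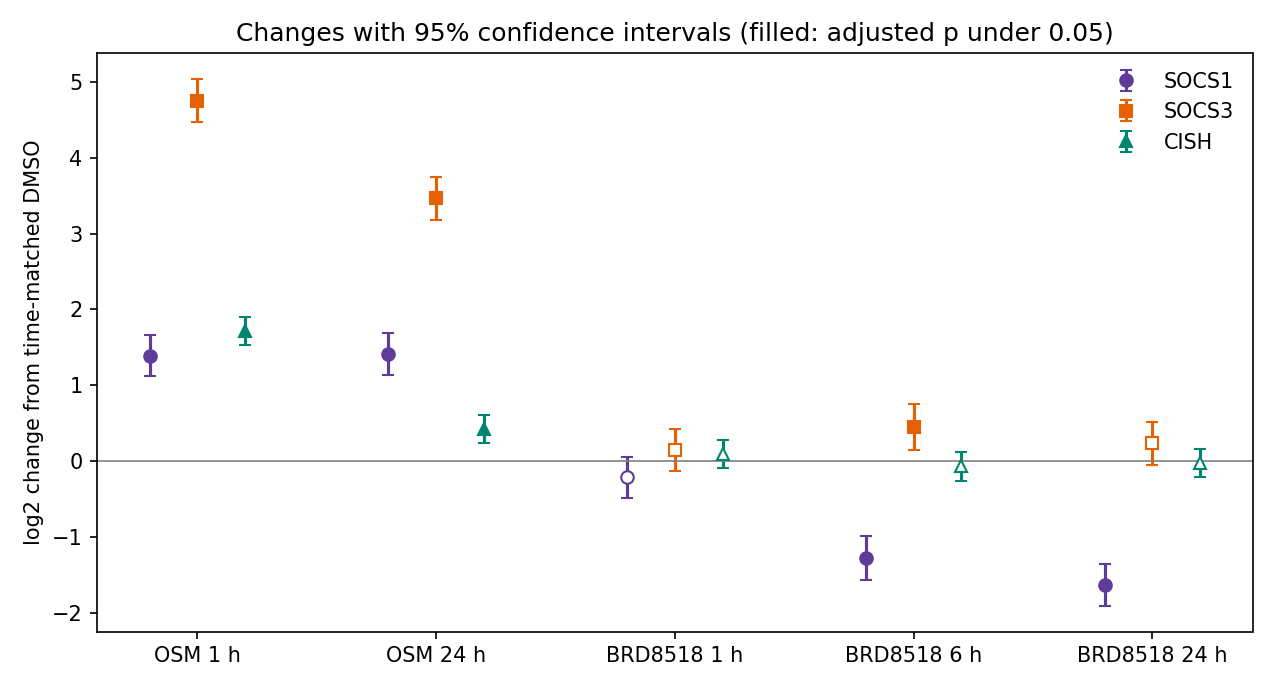
Log2 change from vehicle cells of the same time for SOCS1 (circles), SOCS3 (squares) and CISH (triangles), with 95% confidence intervals from the fit; filled symbols passed an adjusted p of 0.05. SOCS3 falls from 4.75 to 3.47 between 1 h and 24 h of OSM while SOCS1 stays near 1.4, and SOCS1 reaches -1.63 at 24 h of BRD8518.

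Set directly against OSM at matched times, BRD8518 left every member lower. At 1 h the differences were -4.60 (SE 0.14) for SOCS3, -1.62 (SE 0.09) for CISH and -1.60 (SE 0.13) for SOCS1, with adjusted p values of 7.4e-16, 3.2e-11 and 2.2e-08. At 24 h they were -3.23 (SE 0.14) for SOCS3, -3.05 (SE 0.13) for SOCS1 and -0.44 (SE 0.09) for CISH, with adjusted p values of 7.1e-14, 1.1e-13 and 5.7e-04. In these comparisons 1.5% of all genes were lower under BRD8518 at 1 h and 12.3% at 24 h. The 24 h gap of SOCS1, 8.26-fold, adds its rise under OSM to its fall under BRD8518, whereas the gaps of SOCS3 (9.40-fold) and CISH (1.36-fold) lie almost wholly on the OSM side. BRD8518 and OSM share their vehicle arrays at 1 h and 24 h, and the 2 agents were each given at 1 dose.

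Vehicle cells changed little over the same hours. Between 1 h and 24 h the vehicle differences were 0.14 for SOCS1, -0.17 for SOCS3 and 0.001 for CISH, and no difference between vehicle times passed the test for any member (adjusted p from 0.70 to 1). That comparison and the one of 24 h with 6 h each called 0 of 14884 genes by limma (0%), with 424 and 599 at an unadjusted p under 0.05, and the 6 h to 1 h comparison called 1 (0.00672%). The 3 SOCS3 vehicle arrays at 24 h all lay below those at 1 h, as did vehicle arrays for 3.35% of all genes.

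Ordered by group mean, SOCS1 ran from 5.97 at 24 h of BRD8518 through 6.37 at 6 h and 7.26 at 1 h of the compound to the vehicle groups at 7.47, 7.61 and 7.65 for 1 h, 24 h and 6 h, and then to 8.86 and 9.02 at 1 h and 24 h of OSM. The arrays of the 3 vehicle groups overlapped their neighbours in that order, as did the OSM groups, and the others were apart. For SOCS3, 24 h vehicle was lowest at 5.30, 6 h of BRD8518 stood at 5.99 and the OSM groups at 8.77 (24 h) and 10.23 (1 h), with the 4 groups between 24 h vehicle and 6 h of BRD8518 overlapping one another in turn. For CISH, the 6 groups without OSM formed an unbroken run of overlapping neighbours from 5.84 to 6.00, below 6.29 at 24 h and 7.58 at 1 h of OSM. Across the 8 group means, SOCS3 and CISH followed each other with a Pearson r of 0.91, SOCS1 and SOCS3 with 0.76, and SOCS1 and CISH with 0.66, as descriptions of 8 points that share arrays and the normalization.

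SOCS3 probe set 2 was dim and gave the same OSM calls with smaller sizes. It read 2.54, 2.26 and 2.80 in 1 h vehicle and 6.25, 4.86 and 5.68 at 1 h of OSM, and 2.60, 2.70 and 2.83 in 24 h vehicle and 4.97, 4.08 and 4.42 at 24 h of OSM. The OSM arrays lay above all vehicle arrays at both times and spread more widely than on probe set 1. The rises were 3.07 (SE 0.25, 8.37-fold, adjusted p = 1.4e-08) at 1 h and 1.78 (SE 0.25, 3.43-fold, adjusted p = 2.6e-05) at 24 h. Its OSM effect dropped by 1.29 (SE 0.35, adjusted p = 0.045) between the times, against 1.28 on probe set 1. Under BRD8518 the changes of probe set 2 were -0.054 at 1 h, 0.22 at 6 h and -0.20 at 24 h, with adjusted p values of 1, 0.69 and 0.66, so the 6 h rise of probe set 1 was not called here and the signs at 1 h and 24 h were opposite to those of probe set 1. RefSeq places the divergent transcript SOCS3-DT over SOCS3 and LOC105371082 over SOCS1, and whether any of these probe sets reads them was not tested.

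**Figure D3:**
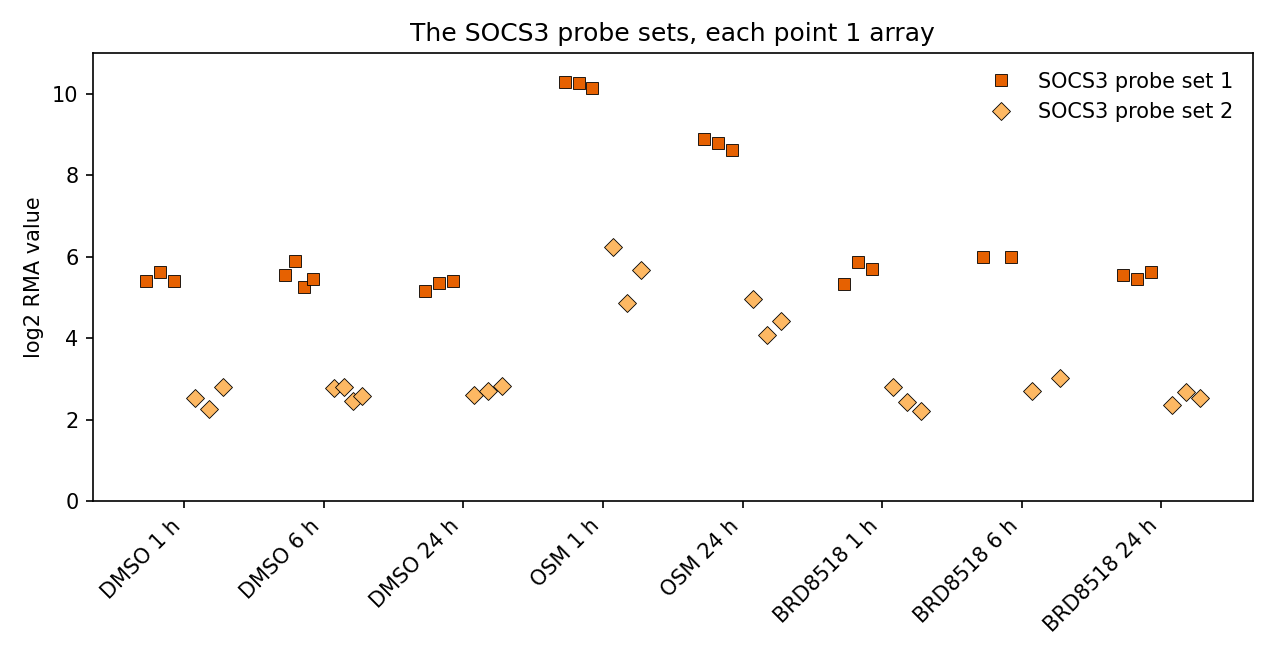
Log2 RMA value of SOCS3 on each array as read by probe set 1 (squares) and probe set 2 (diamonds), by treatment and time. Both are highest at 1 h of OSM and lower but still raised at 24 h; probe set 2 stays between 2.21 and 3.03 in every vehicle and BRD8518 array.

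All 5 other SOCS genes (SOCS2, SOCS4, SOCS5, SOCS6 and SOCS7) were measured. SOCS2, the brake on growth hormone receptor signalling, was the single one that rose at 1 h of OSM, by 0.67 (SE 0.09, adjusted p = 2.8e-05), from a mean of 5.40 to 6.07 over 3 arrays each. At 24 h of OSM it stood 0.050 below vehicle (adjusted p = 0.85), and its effect dropped between the times by 0.72 (SE 0.12, adjusted p = 9.9e-04). SOCS6, which binds the insulin receptor and KIT, went the other way from SOCS1: it fell by 0.43 (SE 0.13, adjusted p = 0.031) at 24 h of OSM and rose by 1.00 (SE 0.14, adjusted p = 1.6e-05) at 6 h and 0.51 (SE 0.13, adjusted p = 0.0037) at 24 h of BRD8518. SOCS7 rose by 0.51 (SE 0.09, adjusted p = 1.5e-04) at 24 h of BRD8518. SOCS4 and SOCS5 passed none of the 5 comparisons with vehicle. Of the SOCS box partners, 3 of 6 listed were measured, the scaffolds CUL2 and CUL5 and the RING protein RNF7, and 0 passed any comparison with vehicle by limma (1 of 3 had an unadjusted p under 0.05 at 1 h and 24 h of BRD8518 and at 24 h of OSM, and 0 of 3 otherwise), where 0.255% (1 h of BRD8518) to 27.7% (24 h of BRD8518) of all genes passed.

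Of 7 listed gp130-family receptor genes, 4 were measured (OSMR, LIFR, IL6R and CNTFR), and those called were mostly higher. The gp130 chain itself, on which SOCS3 docks, is not among these 4. OSMR, the OSM-specific chain, rose under OSM by 0.50 (SE 0.07) at 1 h and 1.20 (SE 0.07) at 24 h, while LIFR, the alternative OSM partner chain, fell by 1.06 (SE 0.12) at 24 h (adjusted p = 3.8e-05, 2.8e-11 and 2.0e-06). IL6R rose under both agents, by 0.37 and 0.87 at 1 h and 24 h of OSM and by 1.05 and 2.24 at 6 h and 24 h of BRD8518. At 24 h of BRD8518 IL6R is a 4.73-fold rise (adjusted p = 1.5e-14) in the group with the lowest SOCS1. The median change of the 4 was 0.50 at 24 h of OSM and 0.081 at 24 h of BRD8518, against 0.008 and -0.005 over all genes.

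All 4 Janus kinases were measured. At 1 h of either agent and at 6 h of BRD8518 limma called 0 of them. At an unadjusted p under 0.05 there was 1 at 1 h of OSM and 0 at the others. Over all genes 2.84% were called at 1 h of OSM, and 0.255% and 14.5% at 1 h and 6 h of BRD8518. A count of 0 of 4 therefore says little about these kinases. JAK3 rose by 1.32 (SE 0.10, adjusted p = 1.3e-09) at 24 h of OSM, and JAK2 by 1.25 (SE 0.15, adjusted p = 9.9e-07) and JAK1 by 0.51 (SE 0.08, adjusted p = 2.9e-05) at 24 h of BRD8518. JAK1, JAK2 and TYK2 are the kinases known to sit on gp130, and SOCS1 inhibits all of these. TYK2 passed no comparison with vehicle. Of 7 STAT genes listed, 4 were measured. STAT3, the main mediator of gp130 signals, rose by 0.37 and 0.57 at 1 h and 24 h of OSM and by 0.34 at 6 h of BRD8518 (adjusted p = 0.0072, 2.1e-05 and 0.0068), and the STAT5 genes STAT5A (0.68) and STAT5B (0.68) rose at 24 h of BRD8518 (adjusted p = 7.1e-04 and 3.4e-04). STAT4 passed none of these comparisons. Over all genes 2.03% rose at 1 h and 4.6% at 24 h of OSM, and 5.62% at 6 h and 12.1% at 24 h of BRD8518.

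Other inhibitors of signalling, not all of them known to act on Janus kinases or STAT proteins, were thinly covered, with 3 of 14 listed genes measured. DUSP1, a phosphatase of MAP kinases, rose in all 5 comparisons, by 1.33 and 0.56 at 1 h and 24 h of OSM and by 0.97, 2.10 and 1.90 at 1 h, 6 h and 24 h of BRD8518. GRB10, an adaptor that restrains insulin receptor signalling, rose by 0.34 at 6 h and 1.64 at 24 h of BRD8518, and DUSP3 by 0.35 at 24 h. DUSP1 was thus raised by the compound at times when SOCS1 was lowered or not called, and a link between these changes was not tested.

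Receptors and adaptors that SOCS proteins are known to bind outside the gp130 family were measured for 16 of 20 listed. Under OSM 2 rose at 1 h, IL4R (1.09, SE 0.10) and the interferon gamma receptor chain IFNGR1 (1.07, SE 0.12), beside 2.03% of all genes. At 24 h of OSM 4 rose, led by IL4R (1.62) and IFNGR1 (1.30), beside 4.6% of all genes that rose. There 1 fell, the prolactin receptor gene PRLR (-1.90, SE 0.15, adjusted p = 4.5e-09), beside 5.65% of all genes that fell. Under BRD8518 0 of 16 passed at 1 h by limma (also 0 at an unadjusted p under 0.05), beside 0.255% of all genes. At 6 h 4 rose, led by IL4R (1.08) and the insulin receptor substrate IRS1 (0.66), beside 5.62% of all genes that rose. At 24 h 5 rose, led by IL4R (1.38) and MET (0.73), while 3 fell, PRLR (-1.72), CSF3R (-0.59) and the erythropoietin receptor gene EPOR (-0.29). The 24 h share called, 8 of 16, stands beside 27.7% of all genes, and the median change of the 16 was 0.044 against -0.005 over all genes.

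Most measured genes of a list that STAT3 is known to induce, the class to which SOCS3 belongs, rose with it under OSM. Of 14 listed regulators 11 were measured, and 7 rose and 0 fell at 1 h, beside 2.03% of all genes that rose and 0.813% that fell. Their median was 0.98 against 0.007 over all genes. JUNB, an AP-1 factor (3.45, SE 0.12), and IRF1, an interferon-pathway factor (2.94, SE 0.11), led (adjusted p = 8.2e-15 and 2.1e-14). At 24 h 7 rose, beside 4.6% of all genes, led by JUNB (2.24) and the kinase gene PIM1 (0.81), with a median of 0.40. Between the times the OSM effect dropped for 4 of 11: IRF1 (by 2.54, SE 0.15), JUNB (by 1.21, SE 0.17), FOS (by 1.14, SE 0.23) and BCL3 (by 0.57, SE 0.12), with adjusted p values of 4.7e-10, 7.4e-05, 0.0047 and 0.0051. SOCS3 and CISH dropped by 1.28 and 1.29 over the same interval, in which the OSM effect dropped for 2.1% of all genes.

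Under BRD8518, where SOCS3 changed by 0.15, 0.45 and 0.23, several of these regulators were called. At 1 h 4 of 11 rose (FOS 1.13, JUNB 1.09, BCL6 0.77 and MYC 0.43), in a comparison in which 0.222% of all genes rose. At 6 h 8 rose, where 5.62% of all genes rose, led by PIM1 (1.83), JUNB (1.82) and the survival gene MCL1 (1.37). There IRF1 fell by 0.48 (SE 0.12, adjusted p = 0.0055), where 8.86% of all genes fell. At 24 h 7 rose, where 12.1% of all genes rose, led by PIM1 (1.88) and MCL1 (1.07), and IRF1 fell by 0.36 (SE 0.11, adjusted p = 0.016). IRF1 is the one listed regulator that, as SOCS1, rose under OSM at both times and fell under BRD8518 at 6 h and 24 h. The listed targets of STAT5, 7 of 9 measured, gave 2 rises at each OSM time, beside 2.03% and 4.6% of all genes, and 1, 3 and 3 at 1 h, 6 h and 24 h of BRD8518, beside 0.222%, 5.62% and 12.1%, with 0 falls. PIM1, BCL6, BCL2L1 and CCND1 are listed in both classes. Apart from SOCS2 at 1 h of OSM, all of these rises were of these shared genes. The STAT5 counts therefore largely repeat those of the regulators above. PIM1 is among the rises at 4 of these 5 points.

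Acute phase genes, the secreted liver products of STAT3 signalling, were measured for 14 of 19 listed. Under OSM 9 rose and 0 fell at each time, beside 2.03% of all genes that rose at 1 h and 4.6% at 24 h, with medians of 0.64 and 0.67. LBP, which binds bacterial lipopolysaccharide, led with 3.73 (SE 0.13) at 1 h and 5.70 (SE 0.13) at 24 h, followed by HPX, which binds haem (1.77), at 1 h and the metalloproteinase inhibitor TIMP1 (2.11) at 24 h. Unlike SOCS3 and CISH, LBP had a larger OSM effect at 24 h than at 1 h, by 1.97 (SE 0.18, adjusted p = 4.3e-07), as had the ceruloplasmin gene CP (by 1.09, SE 0.16, adjusted p = 1.3e-04), while HPX (-1.25) and HAMP (-1.16) dropped. A larger OSM effect at 24 h was called for 1.27% of all genes. Under BRD8518 0 of 14 passed at 1 h by limma (1 at an unadjusted p under 0.05), where 0.255% of all genes passed. At 6 h 1 passed, the hepcidin gene HAMP (1.04, SE 0.20, adjusted p = 7.0e-04), where 14.5% of all genes passed. At 24 h TIMP1 rose (1.51) and 6 fell, led by CP (-1.13), HP (-0.80), HPX (-0.76) and FGG (-0.66), beside 12.1% of all genes that rose and 15.6% that fell. Their median there was -0.072 against -0.005 over all genes.

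**Figure D4:**
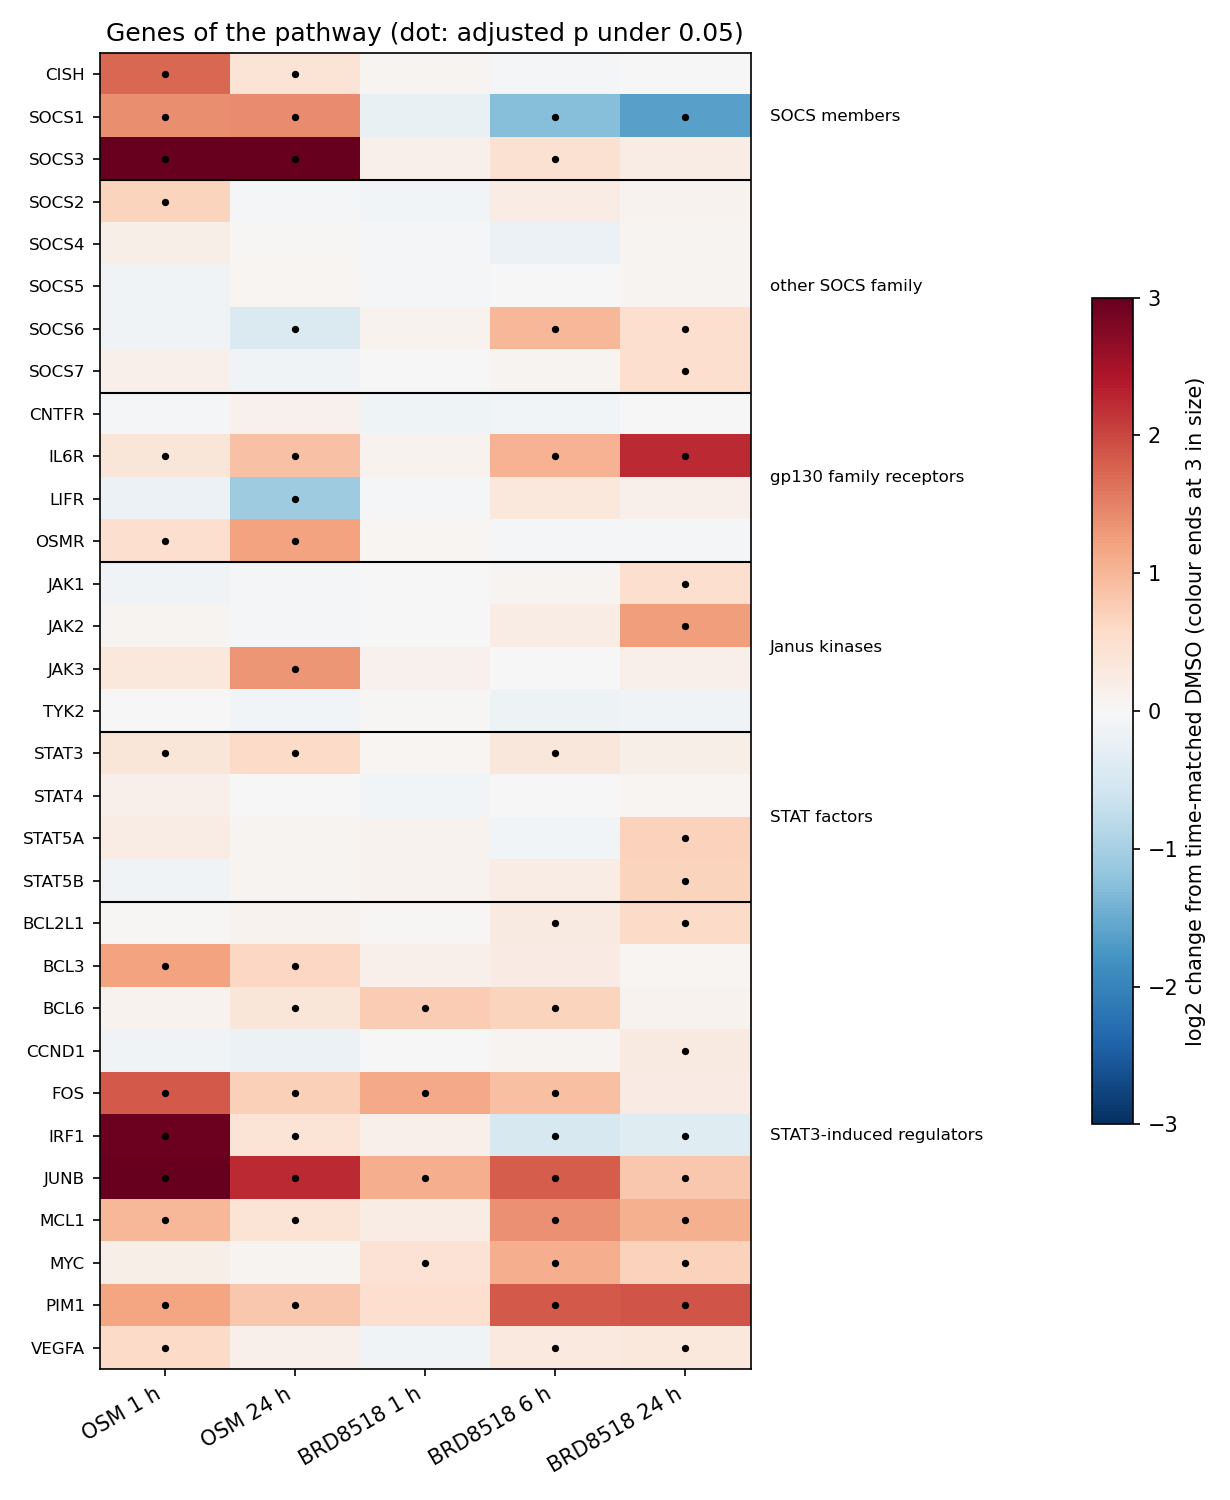
Log2 change from vehicle cells of the same time (colour, ending at 3 in size) for the members, the other SOCS genes, gp130-family receptors, Janus kinases, STAT genes and STAT3-induced regulators; a dot marks an adjusted p under 0.05. The members and most STAT3-induced regulators are red under OSM, and SOCS1 is blue at 6 h and 24 h of BRD8518 beside mostly red regulators.

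By likeness of the 8 group means, the 3 members had different neighbours. Nearest to SOCS1 were DHRS13 (r = 0.99), ZNF101 (0.99), ZNF684 (0.98), LRRC61 (0.98) and NARF (0.97). ZNF101, a zinc-finger gene, averaged 7.11 ± 0.04 (SD, n = 3) in 1 h vehicle, 8.15 ± 0.13 at 1 h of OSM, 6.37 ± 0.17 (n = 2) at 6 h and 5.86 ± 0.14 at 24 h of BRD8518. Like SOCS1 it was high at both OSM times and low at the later BRD8518 times. DHRS13, a gene of the short-chain dehydrogenase family, ranged from 6.66 at 24 h of BRD8518 to 8.02 at 24 h of OSM.

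Nearest to SOCS3 were THRSP (r = 0.98), LCN2 (0.98), CD14 (0.97), BCL3 (0.96) and STING1 (0.96). LCN2, which encodes an iron-siderophore binding protein of inflamed liver, averaged 5.90 ± 0.07 in 1 h vehicle, 6.62 ± 0.06 at 1 h of OSM and 6.34 ± 0.14 at 24 h of OSM (SD, n = 3 each). BCL3, an IkB-family nuclear cofactor, averaged 7.66 ± 0.05, 8.86 ± 0.04 and 8.40 ± 0.03 in the same groups. CD14, also one of the macrophage markers, ranged from 5.01 in 24 h vehicle to 5.93 at 1 h of OSM. In LCN2, BCL3 and CD14 the OSM groups were the highest, with 1 h above 24 h, as for SOCS3, while STING1 averaged 6.04 at 1 h and 6.07 at 24 h of OSM.

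Nearest to CISH were MIR146B (r = 0.99), ZNF460 (0.99), IRF1 (0.99), TRIM40 (0.99) and GRAMD2A (0.97), all highest at 1 h of OSM. IRF1 averaged 5.59 ± 0.05 in 1 h vehicle, 8.54 ± 0.17 at 1 h of OSM and 6.10 ± 0.04 at 24 h of OSM (SD, n = 3 each). The MIR146B probe set detects primary or precursor RNA rather than the mature microRNA, and averaged 3.12 ± 0.23, 5.83 ± 0.34 and 3.72 ± 0.12 in the same groups. These likenesses rest on 8 points, of which the OSM groups lie farthest from the rest. Over the 24 single arrays the r values of the same genes ran from 0.89 to 0.97 for SOCS1, 0.82 to 0.95 for SOCS3 and 0.71 to 0.98 for CISH.

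**Figure D5:**
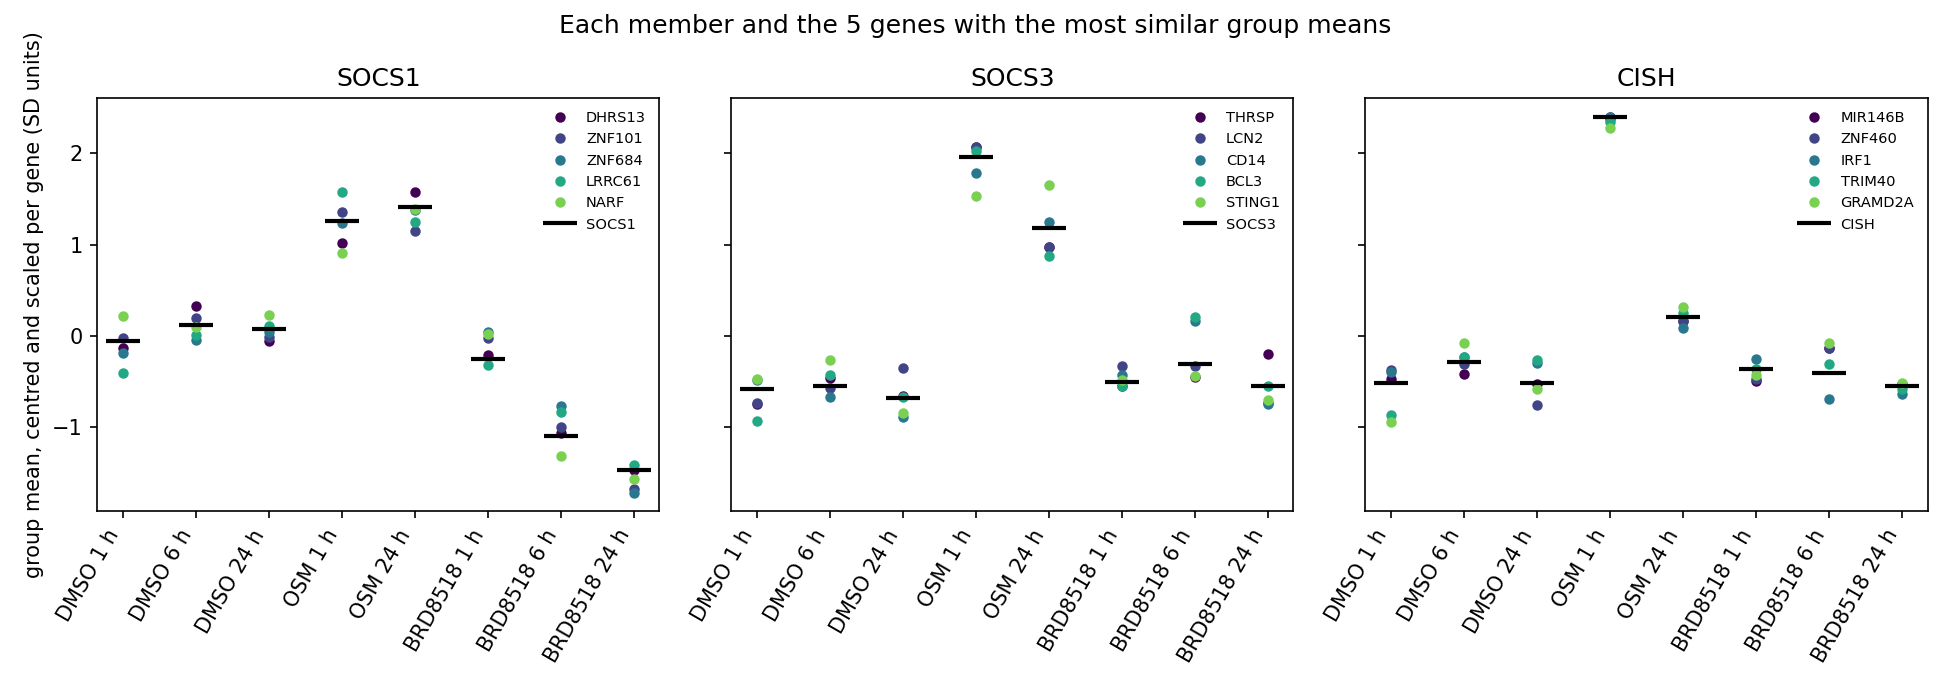
Group means of each member (black bars) and of the 5 genes with the most similar group means (points), each gene centred and scaled to its own SD over the 8 groups. The SOCS1 neighbours have their lowest group means at 6 h and 24 h of BRD8518, the SOCS3 neighbours are raised at both OSM times, and the CISH neighbours stand out at 1 h of OSM.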

How the data were processed

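Affymetrix whole-transcript arrays of 24 HepG2 RNA samples in 8 groups were used. Their log2 values, as deposited by the authors, come from RMA with oligo per the submitters' processing notes; tool versions and the build of the probe sets are not given in these sources. They were not renormalized (range 0.913 to 13.7, array medians 4.89 to 4.95). The number of arrays limits the precision. The platform table named 1 symbol for 16098 of 53617 probe sets and several for 0, and 37519 are unnamed here. Each of 14884 genes was read by its probe set with the highest mean.

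One limma 3.58.1 fit (R 4.3.3) with 1 mean per group and empirical Bayes moderation (prior degrees of freedom 5.3) gave every contrast, with two-sided p values adjusted by Benjamini-Hochberg over all genes. It was tested on simulated data. Promoter windows were searched with Python 3.11, and figures drawn with matplotlib 3.10.9.

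The members and gene lists were chosen with earlier results of these data known. The result of 1 gene list is not reported here. Named from each list were up to 4 called genes per direction and comparison, and for each member the 5 genes with the highest Pearson r over group means. Replicates were numbered in accession order. Alternatives were centring each array, quantile normalization, dropping genes below the median, trend with robust moderation, fitting only the arrays compared, array weights, averaging probe sets per gene, a random block for position letter and leaving out each array. Fits without DMSO 6 h replicate 2, within a position letter and with SOCS3 probe set 2 were added after seeing the data.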

Additional observations from a re-analysis of the deposited data

Results flagged for a closer look

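The OSM effect on SOCS3 differed between 1 h and 24 h by -1.28 on the log2 scale (24 h minus 1 h, limma adjusted p = 1.8e-04), with the 3 OSM arrays of each time above all of their vehicle arrays. The OSM effect on CISH differed between the same times by -1.29 (adjusted p = 5.6e-07). The BRD8518 effect on SOCS1 differed between 1 h and 6 h by -1.07 (6 h minus 1 h, adjusted p = 0.0011), and by -0.91 without DMSO 6 h replicate 2. The BRD8518 effect on SOCS1 differed between 1 h and 24 h by -1.42 (24 h minus 1 h, adjusted p = 6.3e-06).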

How the results depend on the processing

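Over the alternatives run, every call of SOCS1, SOCS3 and CISH under OSM and of SOCS1 under BRD8518 at 6 h and 24 h was kept, leaving out any single array included; with SOCS3 probe set 2 the OSM rises were 3.07 and 1.78 in place of 4.75 and 3.47. The rise of SOCS3 at 6 h of BRD8518 (0.45, adjusted p = 0.036) was lost with the compared groups alone (0.45, adjusted p = 0.27), the mean of the probe sets (0.34) and probe set 2 (0.22), and ran from 0.36 to 0.57 when single arrays were left out. The 24 h minus 6 h difference of SOCS1 passed with array weights (-0.49, adjusted p = 0.0064) and ran from -0.51 to -0.27 without single arrays. Some of the changes that were not called crossed 0. For CISH these were 24 h of BRD8518 (0.006 centred, 0.002 quantile; -0.057 to 0.016 without single arrays), 6 h (0.007 centred, 0.005 quantile, 0.004 weights; -0.20 to 0.06), 24 h minus 6 h (-0.001 centred, -0.003 quantile, -0.042 weights; -0.083 to 0.17) and vehicle 24 h minus 1 h (-0.008 under both scalings; -0.063 to 0.041). For SOCS3 they were 1 h of BRD8518 (-0.054 on probe set 2, and -0.16 within letter B, which leaves 1 treated array), 24 h (-0.20 on probe set 2), 24 h minus 1 h (-0.14 on probe set 2, -0.028 by the mean; -0.069 to 0.21), vehicle 24 h minus 1 h (0.18 and 0.003), vehicle 24 h minus 6 h (0.064 on probe set 2) and vehicle 6 h minus 1 h (-0.014 with weights; -0.053 to 0.16). For SOCS1 they were vehicle 24 h minus 6 h (0.081 with weights; -0.13 to 0.11) and the OSM effect 24 h minus 1 h (-0.043 to 0.11).

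Counts of all genes called moved with the setting, and the cause was not tested. With array weights they were 81 and 3466 at 1 h and 6 h of BRD8518, 1125 and 3068 at 1 h and 24 h of OSM, 934 and 5286 for BRD8518 against OSM, 1324 for the OSM effect between times and 1989, 2866 and 4012 for the BRD8518 effect (6 h minus 1 h, 24 h minus 6 h, 24 h minus 1 h). Without DMSO 6 h replicate 2 in any comparison they were 76 at 1 h of BRD8518, 806 and 2535 for OSM, 716 for BRD8518 against OSM at 1 h and 1100 for the OSM effect between times. With the compared groups alone they were 452 at 6 h of BRD8518, 828 for the OSM effect between times and 327 and 875 for the BRD8518 effect (6 h minus 1 h, 24 h minus 6 h). Leaving out single arrays gave 25 to 38 and 1208 to 3345 at 1 h and 6 h of BRD8518, 274 to 362 at 1 h of OSM, 224 to 296 for BRD8518 against OSM at 1 h, 498 to 1898 for the 6 h minus 1 h effect and 1018 to 2741 for the 24 h minus 6 h effect. No paired analysis was possible because the labels give no replicate numbers. The values carry no detection calls, and SOCS3 probe set 2 averaged 3.22, near the bottom of the scale, where changes tend to be compressed. BRD8518 at 6 h had 2 arrays, the fewest of any group.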
